A study of Mus musculus with 9 samples.

Results

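Binding of CTCF was examined in 3 stretches of the mouse genome (mm9) that had been set out around Cdk6, Ccnd2 and Ccnd3: chr5:3250000-3650000 for Cdk6, chr6:126950000-127200000 for Ccnd2 and chr17:47500000-47800000 for Ccnd3. The members were chosen by 2 things, the coordinates of these windows and the presence of a called CTCF peak in at least 1 of 8 libraries. Peaks sharing 1 bp or more were joined, which gave 44 regions in the 3 windows out of 39574 over chromosomes 1 to 19 and X, with 8 in the Cdk6 window, 12 in the Ccnd2 window and 24 in the Ccnd3 window. Because peak presence and fold enrichment were the measures used to set out these loci, their values below are a description and carry no test.

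CTCF was profiled by CUT&RUN, in which a nuclease held by an antibody cuts out the DNA around the bound protein, in CD8+ T cells from spleen sorted as GFP+ TCRbeta+ CD62Lhi CD44lo-med CD8+. All mice carried hCD2-Cre, a recombinase driven by human CD2 sequences and active in lymphoid cells, and the Rosa26-lsl-GFP reporter that turns green where Cre has acted. The groups were wild type (WT) and Tcf1-/-Lef1-/- (DKO, from mice floxed for both genes), each at 0 h, as sorted naive cells, and after 72 h in vitro with IL-7 and IL-15. Each of the 4 groups had 2 libraries, with 1 IgG library of WT cells at 0 h. Age, sex and the number of animals were not given in the labels used here, and nothing said that replicates came from separate animals. Peak lists hold no expression values, so neither the cell type nor the loss of Tcf1 and Lef1 was checked.

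Cdk6 encodes a kinase and Ccnd2 and Ccnd3 encode D-type cyclins, its regulatory partners. The kinase bound to a D cyclin phosphorylates the retinoblastoma protein and its relatives, which frees E2F factors and lets a cell pass from G1 into S phase. In T cells these genes are known targets of growth signals from the antigen receptor and from cytokines, and cyclin D3 is known for its part in the expansion of immature thymocytes. CTCF is a zinc-finger protein that halts cohesin and marks many loop anchors and domain borders. In the RefSeq annotation of GRCm38.p6, used here only for names and order, the protein-coding gene after Cdk6 was Fam133b, Ccnd2 lay between Tigar and Parp11, and Ccnd3 lay between Taf8 and Bysl. No mm9 annotation was used here, so no region is assigned to a gene, exon or promoter, and other genes of the G1 to S pathway were not placed.

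For reference, RefSeq promoter sequences matched 2 of the 3 genes, 1 start for Cdk6 and 2 for Ccnd3, each from 250 bases before to 50 bases after the start (GRCm38.p6). They are shown because these are the start sites after which the windows are named, and their place relative to the mm9 peaks was not determined. Capitals mark CCCTC or its reverse complement GAGGG, the run of letters from which CTCF (CCCTC-binding factor) has its name. Both strands were searched and overlapping matches were counted.
Cdk6, chr5:3343643-3343942, plus strand: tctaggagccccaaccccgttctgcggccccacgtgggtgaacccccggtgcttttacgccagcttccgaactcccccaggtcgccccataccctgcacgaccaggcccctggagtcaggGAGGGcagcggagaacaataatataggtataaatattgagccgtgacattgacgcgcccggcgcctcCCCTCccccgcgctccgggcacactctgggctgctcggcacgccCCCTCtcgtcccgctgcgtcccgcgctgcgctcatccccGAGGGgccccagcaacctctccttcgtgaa
Ccnd3, chr17:47504801-47505100, plus strand: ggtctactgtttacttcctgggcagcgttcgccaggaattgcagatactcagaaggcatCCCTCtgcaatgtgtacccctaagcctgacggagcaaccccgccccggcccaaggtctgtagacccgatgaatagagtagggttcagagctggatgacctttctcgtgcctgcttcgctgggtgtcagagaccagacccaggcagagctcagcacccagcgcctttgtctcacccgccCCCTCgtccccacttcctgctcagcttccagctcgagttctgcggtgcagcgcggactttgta
Ccnd3, chr17:47593217-47593516, plus strand: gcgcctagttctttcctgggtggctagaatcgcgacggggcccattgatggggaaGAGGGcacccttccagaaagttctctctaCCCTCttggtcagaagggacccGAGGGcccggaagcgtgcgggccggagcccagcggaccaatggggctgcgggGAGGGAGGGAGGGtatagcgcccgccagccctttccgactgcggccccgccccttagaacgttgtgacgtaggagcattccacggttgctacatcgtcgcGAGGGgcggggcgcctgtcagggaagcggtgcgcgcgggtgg
The Cdk6 sequence held CCCTC 2 times and GAGGG 2 times. The first Ccnd3 sequence held CCCTC 2 times and GAGGG 0 times, and the second held CCCTC 1 time and GAGGG 6 times. These letters are common, as 66.0% of 32851 promoter sequences of the same length held at least 1 match, so a match is no sign of a binding site.

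The lists differed in length, which bears on every absence given below. They held 30309 to 32585 peaks at 0 h. After 72 h the WT lists held 17335 and 26630 peaks and the DKO lists 10339 and 16234. Every listed peak had a fold enrichment over local background of 4 or more as the authors' peak caller gave it, so "no peak" means only that none of at least that fold was listed. Median fold per list was 9.78 to 10.4 at 0 h and 7.03 to 9.06 at 72 h, and for this reason each fold is given with its percentile among the peaks of its own list. At 72 h the median fold was 7.89 and 9.06 in the WT lists and 7.03 and 8.05 in the DKO lists. Where the folds of 2 groups are said below not to overlap, the share of all regions that did so was not counted. Such a separation of 2 libraries from 2 is a description of the region. The number of reads behind each list is unknown. The IgG list held 5 peaks, 0 of them in the 3 windows.

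**Figure D1:**
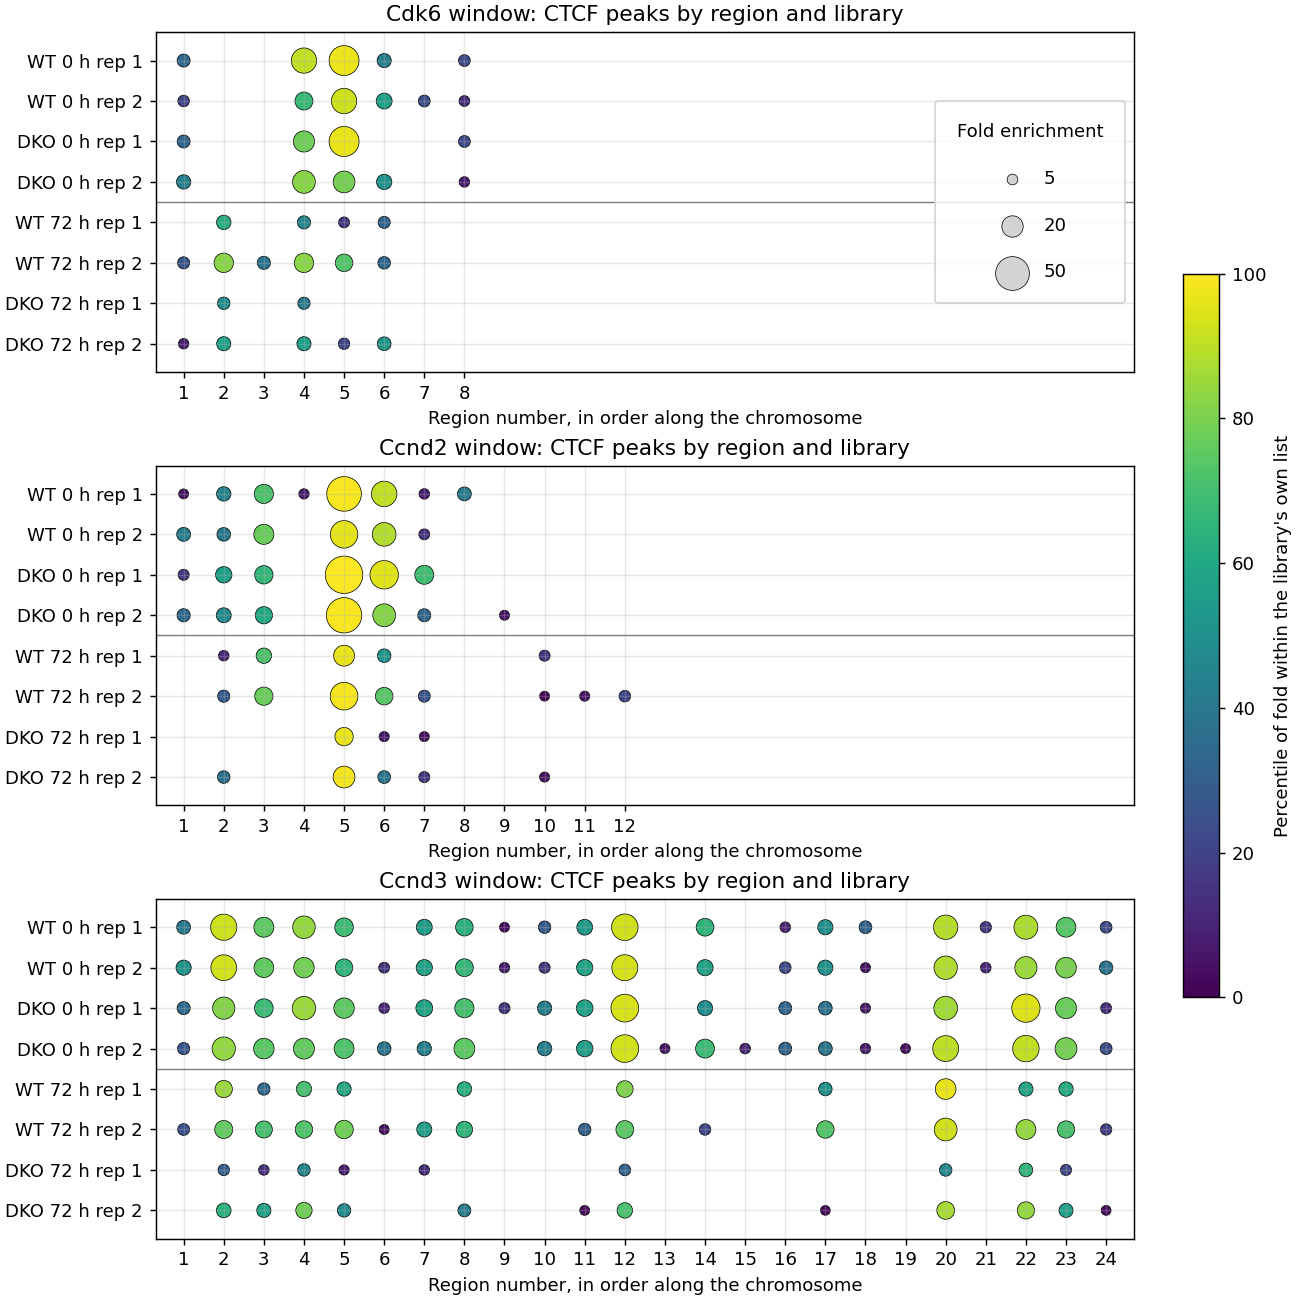
Each circle is a CTCF peak in 1 library (rows) at 1 of the numbered regions of the Cdk6, Ccnd2 and Ccnd3 windows (columns, in order along the chromosome). Circle area is the authors' fold enrichment, colour is its percentile within that library's list, and the grey line separates 0 h from 72 h. Cdk6 region 2 holds a circle in the 4 libraries at 72 h and in none at 0 h.

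The 3 windows differed in how densely they were bound. The Ccnd3 window held 8.0 regions per 100 kb, the Ccnd2 window 4.8 and the Cdk6 window 2.0, against 1.54 over the chromosomes used. The median gap between neighbouring regions was 2430 bp at Ccnd3, 12700 bp at Ccnd2 and 36700 bp at Cdk6, and the longest gap, 115738 bp, lay between the first and the second Cdk6 region. A peak in all 8 libraries was found at 8 of 24 regions at Ccnd3, 2 of 12 at Ccnd2 and 1 of 8 at Cdk6. Together these were 11 of 44 (25.0%), against 24.2% of all regions. A peak in a single library was found at 3, 5 and 2 regions in the same order, or 10 of 44 (22.7%), against 14.7% of all regions.

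Each library's peaks fell on 30 to 34 of the 44 regions at 0 h. After 72 h it was 19 and 30 of them for the WT libraries, 14 and 22 for the DKO libraries. Per 10000 listed peaks this came to 9.90 to 10.8 at 0 h and, after 72 h, to 11.0 and 11.3 for WT and 13.5 and 13.6 for DKO. In the Cdk6 window the naive libraries had 5 and 6 (WT) and 4 and 5 (DKO), and those of 72 h had 4 and 6 (WT) and 2 and 5 (DKO). In the Ccnd2 window they were 8 and 6, 6 and 7, 5 and 8, and 3 and 5 in the same order, and in the Ccnd3 window 20 and 21, 20 and 22, 10 and 16, and 9 and 12. When every list was shortened to its 10339 peaks of smallest p-value, the 3 windows held peaks at 10, 14, 12 and 13 regions at 0 h and at 14, 16, 14 and 14 regions at 72 h. At equal length each 72 h library held as many regions as, or more than, any library at 0 h, and what part list length had in the numbers of the full lists was not tested.

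Cdk6 is the catalytic partner of the D cyclins, and its window held the 1 region of the 44 that was called at 72 h in both genotypes and in no naive library. This was region 2, chr5:3460674-3461438. None of the 4 libraries at 0 h listed a peak there. At 72 h the fold was 9.14 and 16.5 in WT (percentiles 62.4 and 82.3) and 6.88 and 8.78 in DKO (percentiles 48.9 and 58.0). The WT and DKO folds at 72 h did not overlap, although the lower WT value and the higher DKO value lay close together.

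The pattern of Cdk6 region 2 was rare in the series. A peak in all 4 libraries at 72 h and in none at 0 h was found at 31 of 39574 regions, or 0.0783%, of which 16 were on the X chromosome and 15 on autosomes. By its mean percentile at 72 h, 62.9, it ranked 13 among the 31 and 4 among the 15 autosomal regions. With lists of equal length, the 4 libraries at 72 h still listed a peak there. Shortening a list cannot add a peak, so the absence at 0 h could not change in this check. DKO replicate 1 at 72 h, the shortest list, was not cut. At that length 1.35% of 15231 regions had this pattern, and Cdk6 region 2 was again the 1 member that did. The 4 summits lay within 130 bp of each other, and the nearest other region, Cdk6 region 3 (chr5:3477874-3478207), was 16435 bp away and had a peak in WT replicate 2 at 72 h alone (fold 7.61).

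The strongest Cdk6 regions in naive cells were regions 4 and 5, further along the window. Region 4 (chr5:3542944-3544324) had a peak in all 8 libraries, with a fold of 28.0 and 14.1 in WT cells and 19.6 and 22.7 in DKO cells at 0 h, and of 7.63 and 16.6 in WT cells and 6.58 and 8.76 in DKO cells at 72 h. The values at 0 h and 72 h overlapped through WT replicate 2, which had 14.1 at 0 h and 16.6 at 72 h. Its percentiles ran from 67.8 to 90.5 at 0 h and from 41.7 to 82.5 at 72 h.

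Region 5 (chr5:3595667-3597288) stood higher than region 4 in 3 of 4 naive lists and lower in all 4 lists at 72 h. Its fold was 39.2 and 28.1 in WT cells and 39.4 and 20.7 in DKO cells at 0 h (percentiles 97.1, 92.4, 96.6 and 79.0). At 72 h it was 5.25 and 13.5 in WT (percentiles 15.6 and 72.8), 5.72 in DKO replicate 2 (20.5), and DKO replicate 1 listed no peak. The values of the 2 times did not overlap. Of the 28 members found in all 4 libraries at 0 h, it had the highest mean naive percentile, 91.3, among those that lacked a peak in some 72 h library. In the whole series, 2521 regions of the 4 naive libraries had a mean percentile there at least as high, and 33 of them (1.31%) had no peak in DKO replicate 1 at 72 h. This comparison was added after the values of region 5 were seen, and region 5 itself set both the cutoff and the library. The percentage therefore cannot show that region 5 is unusual.

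The other Cdk6 regions ranked lower. Region 1 (chr5:3344042-3344935), the first of the window, lay 94041 bp inside its edge and stood far from the next region. Its folds ran from 5.85 to 8.99 in the 4 naive libraries. At 72 h they were 6.43 in WT replicate 2 and 4.82 in DKO replicate 2. Region 6 (chr5:3633950-3634587) had folds from 6.39 to 11.1 in 6 libraries and none in replicate 1 of DKO at either time. Region 8 (chr5:3647719-3648755) had a fold of 6.10 and 5.09 in WT cells and 6.17 and 4.83 in DKO cells at 0 h and no peak at 72 h, with summits within 13 bp of each other. Region 7 (chr5:3646906-3647287) was listed in WT replicate 2 at 0 h alone, with a fold of 6.14.

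**Figure D2:**
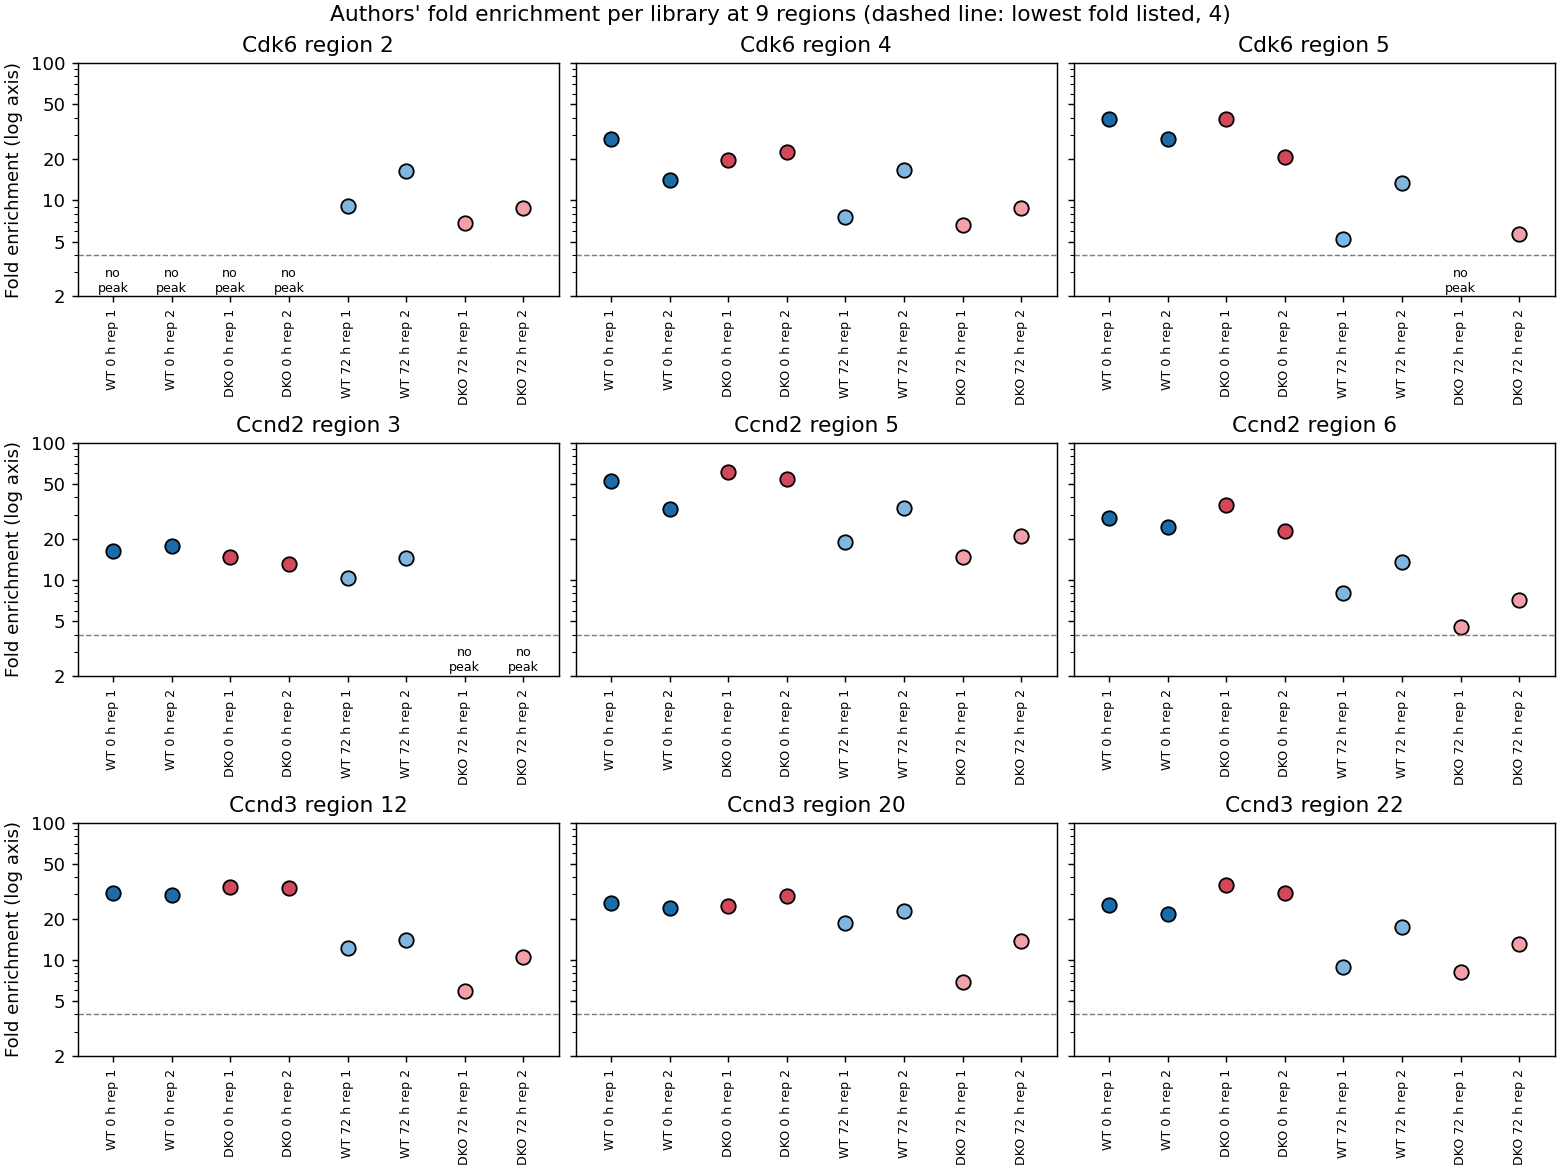
Fold enrichment (vertical log axis) in each of the 8 libraries at 9 regions, with 1 point per library, dark blue and light blue for WT and red and pink for DKO at 0 h and 72 h, and "no peak" where none was listed. At Ccnd2 region 5 the folds run from 14.8 to 61.4, while at Ccnd2 region 3 both DKO libraries at 72 h lack a peak.

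Ccnd2 encodes cyclin D2, and its window held the strongest region of all 44. Region 5 (chr6:127091727-127093209) had a fold of 52.6 and 33.1 in WT cells and 61.4 and 54.7 in DKO cells at 0 h, and of 19.1 and 33.5 in WT cells and 14.8 and 20.8 in DKO cells at 72 h. The naive libraries were higher, with an overlap only between WT replicate 2 at 0 h and WT replicate 2 at 72 h. Within their own lists these peaks all ranked near the top, from percentile 95.9 to 99.6. The summits of the 8 libraries lay within 183 bp.

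Regions 6 and 7 follow closely on region 5. Region 6 (chr6:127097351-127100313) was also found in all 8 libraries, with a fold of 28.4 and 24.5 in WT cells and 35.5 and 22.7 in DKO cells at 0 h and of 8.10 and 13.6 in WT cells and 4.54 and 7.12 in DKO cells at 72 h. The 2 times did not overlap. Its percentiles ran from 82.0 to 95.0 at 0 h and from 6.31 to 73.6 at 72 h, in lists of different length. Region 7 (chr6:127100987-127103185), 673 bp further on, had folds of 4.86 and 5.22 in WT cells and 15.8 and 7.46 in DKO cells at 0 h, 6.31 in WT replicate 2 and 4.39 and 5.35 in DKO at 72 h, and no peak in WT replicate 1 at 72 h. DKO replicate 1 at 0 h stood apart there, and the summits of the 7 libraries spread over 696 bp, the widest spread of the 44 regions.

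Region 3 (chr6:127059402-127059941) was the 1 member called in both WT libraries and in neither DKO library at 72 h. At 0 h its fold was 16.2 and 17.6 in WT (percentiles 71.7 and 77.3) and 14.8 and 13.0 in DKO (66.7 and 60.4), so that the genotypes did not overlap but lay close together. At 72 h it was 10.4 and 14.6 in WT, at percentiles 71.7 and 77.1, and neither DKO library listed a peak. Such a WT-only call at 72 h was made at 1 of 44 members and at 6.37% of all regions. Among regions found in all 4 libraries at 0 h and in both WT libraries at 72 h, DKO lacked the peak at 72 h at 1 of 16 members and at 11.8% of 15786 regions. With lists of equal length, region 3 was listed in WT replicate 2 at 0 h and in both WT libraries at 72 h, and in no DKO library.

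The remaining Ccnd2 regions were weaker. Region 2 (chr6:127055041-127055825), 3576 bp before region 3, had folds from 8.15 to 11.8 at 0 h, 4.89 and 6.54 in WT and 6.93 in DKO replicate 2 at 72 h. Region 1 (chr6:126984655-126985214) had a fold of 4.36 and 8.48 in WT cells and 5.36 and 7.63 in DKO cells at 0 h and no peak at 72 h. Region 10 (chr6:127189923-127190689) went the other way, with a fold of 5.35 and 4.31 in WT and 4.48 in DKO replicate 2 at 72 h and no peak at 0 h, all close to the lowest fold listed. Regions 4, 8, 9, 11 and 12 were each found in 1 library, with folds from 4.40 to 8.47.

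Ccnd3 encodes cyclin D3, and its window held 8 of the 11 members found in all 8 libraries. Region 20 (chr17:47734667-47735576) had the highest mean percentile of the window, with a fold of 26.0 and 23.9 in WT cells and 24.6 and 29.4 in DKO cells at 0 h, and of 18.7 and 22.7 in WT cells and 6.87 and 13.8 in DKO cells at 72 h. At 72 h the WT values lay close below the naive ones and the DKO values lower, with no overlap between the genotypes. Within its own list it lay at percentiles 85.7 to 90.0 at 0 h. At 72 h the WT percentiles were 96.6 and 92.8 and the DKO percentiles 46.9 and 86.9, in lists of different length. DKO replicate 1 at 72 h, the shortest list, was the lowest of the 8, as at every member found in all 8 libraries. Both WT folds at 72 h were also above both DKO folds at Ccnd2 region 6 and Ccnd3 regions 2, 5, 12 and 23. At the other members found in all 8 libraries the genotypes overlapped at 72 h.

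Region 22 (chr17:47747963-47748898) had a fold of 25.2 and 21.6 in WT cells and 35.1 and 30.6 in DKO cells at 0 h, and of 8.84 and 17.3 in WT cells and 8.20 and 13.0 in DKO cells at 72 h. At 0 h both DKO values were above both WT values, and at 72 h the genotypes overlapped. Region 12 (chr17:47647698-47649406) had a fold of 30.8 and 29.6 in WT cells and 33.8 and 33.6 in DKO cells at 0 h, and of 12.1 and 13.9 in WT cells and 5.95 and 10.5 in DKO cells at 72 h. Its naive values were the most even of the 3, at percentiles 92.9 to 94.1. The folds of the 2 times did not overlap at region 12, nor at regions 20 and 22. The other regions of this window found in all 8 libraries were regions 2, 3, 4, 5 and 23, with folds from 13.4 to 30.1 at 0 h and from 4.61 to 15.0 at 72 h. Among these the 2 times overlapped at region 5 alone.

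Between regions 8 and 18 of the Ccnd3 window, from chr17:47638755 to 47671292, 11 regions lay close together and 1 of them, region 12, was found in all 8 libraries. Regions 10 (chr17:47641027-47642176), 16 (chr17:47658327-47658966) and 18 (chr17:47670547-47671292) had a peak in every naive library, with folds from 4.42 to 9.11, and none at 72 h. At region 10 the fold was 6.83 and 5.48 in WT cells against 8.90 and 9.11 in DKO cells, and at region 16 it was 4.94 and 5.94 against 7.36 and 7.29. The DKO values were above the WT values at regions 10 and 16. At region 18 the genotypes overlapped, with a fold of 7.14 and 4.42 in WT cells against 4.50 and 4.78 in DKO cells. All of these folds were under the median fold of their list. Region 14 (chr17:47652722-47653799) was stronger at 0 h, with a fold of 13.8 and 11.4 in WT cells and 10.1 and 15.7 in DKO cells. At 72 h it was listed in WT replicate 2 alone, at 5.80. Region 17 (chr17:47668315-47669048) had folds of 10.1 and 10.1 in WT cells and 8.22 and 8.35 in DKO cells at 0 h, and of 7.97 and 13.4 in WT at 72 h, where DKO replicate 2 had 4.20 and DKO replicate 1 had no peak. The genotype order at 0 h went both ways in this window. Both DKO folds were above both WT folds also at regions 5, 8, 11, 12, 22 and 23. Both WT folds were above both DKO folds at regions 1, 2 and 17. At its other regions listed in all 4 naive libraries the genotypes overlapped.

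Other Ccnd3 regions were listed in part of the libraries. Region 1 (chr17:47505417-47506155) had a fold of 8.41 and 10.1 in WT cells and 7.51 and 6.55 in DKO cells at 0 h, 6.17 in WT replicate 2 at 72 h and no peak in the 3 other libraries. Region 6 (chr17:47612369-47613025) was listed at 5.21 in WT replicate 2 and at 4.93 and 8.17 in DKO at 0 h, and at 4.33 in WT replicate 2 at 72 h. Both were thus absent from the DKO libraries at 72 h and from WT replicate 1 at that time. Regions 7, 8, 11 and 24 were found in all 4 naive libraries and in 2 or 3 of the 72 h libraries, with folds from 4.29 to 18.9. Region 9 was found in 3 naive libraries at folds from 4.29 to 5.32, and regions 13, 15 and 19 in DKO replicate 2 at 0 h alone, at 4.32 to 4.94.

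At 0 h, region 21 of the Ccnd3 window (chr17:47737721-47738253) was the 1 member called in both WT libraries and in neither DKO library, with a fold of 5.63 and 4.96. It lay at percentiles 16.8 and 10.9, that is, among the weaker peaks of both lists, and no library listed it at 72 h. WT-only calls at 0 h were thus made at 1 of 44 members (2.27%), against 4.88% of all regions. DKO-only calls at 0 h were made at 0 of 44 members, against 2.73%. With lists of equal length 0 of 20 members were WT-only at 0 h, against 3.05% of regions. Leaving out WT replicate 2 gave 3 WT-only members, and leaving out any 1 of the other naive libraries gave 2. DKO-only members numbered 4 when DKO replicate 1 was left out and 1 when WT replicate 2 was.

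At 72 h, DKO-only calls were made at 0 of 44 members, against 0.0303% of all regions, and Ccnd2 region 3 was the 1 WT-only call. With lists of equal length the WT-only calls were Ccnd2 region 3 and Ccnd3 region 17, 2 of 20 members against 3.03% of regions. Ccnd3 region 17 had a peak in DKO replicate 2 in the full list, of the low fold given above. The WT-only count at 72 h was 7 without WT replicate 1 or without DKO replicate 2, so it depends on these libraries. Without WT replicate 2, 1 member was DKO-only at 72 h.

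Between 0 h and 72 h, WT cells had 7 members listed in both naive libraries but in neither 72 h library (15.9%, against 13.0% of all regions): 1 at Cdk6, 1 at Ccnd2 and 5 at Ccnd3. In DKO cells there were 9 (20.5%, against 29.1%): 1, 2 and 6. The reverse, a peak in the pair of 72 h libraries with none in the naive pair, was found in WT at Cdk6 region 2 and Ccnd2 region 10 (2 of 44, or 4.55%, against 0.576%). In DKO it was found at Cdk6 region 2 (2.27%, against 0.116%). Over both genotypes, 5 members had a peak in the 4 naive libraries and none at 72 h, against 7.51% of all regions: Cdk6 region 8, Ccnd2 region 1 and Ccnd3 regions 10, 16 and 18.

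The 0 h-only counts were smaller with lists of equal length, where 0 of 20 members were 0 h-only in WT, against 5.12% of regions, and 1 of 20 in DKO, against 6.48%. That member was Cdk6 region 5, listed in both DKO libraries at 0 h and, at this length, in neither at 72 h. In the reverse direction, 72 h-only calls at equal length were made in WT at 3 of 20 members (15.0%, against 4.92% of regions). These were Cdk6 region 2 and Ccnd3 regions 5 and 17. In DKO the call was made at Cdk6 region 2 (5.0%, against 4.98%). Both Ccnd3 regions had peaks in both WT libraries at 0 h in the full lists, and were 72 h-only at this length alone. Their WT folds at 0 h were 15.2 and 13.4 at region 5 and 10.1 and 10.1 at region 17. Ccnd2 region 10 was listed in 0 libraries at equal length, and also with a −log10 q of at least 5. Without WT replicate 2 at 72 h the 0 h-only count of the full lists in WT was 14 in place of 7, and without DKO replicate 2 at 72 h that in DKO was 16 in place of 9. Without WT replicate 1 at 72 h, 5 members were 72 h-only in WT in place of 2, and without DKO replicate 1 at 72 h, 2 were 72 h-only in DKO in place of 1.

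**Figure D3:**
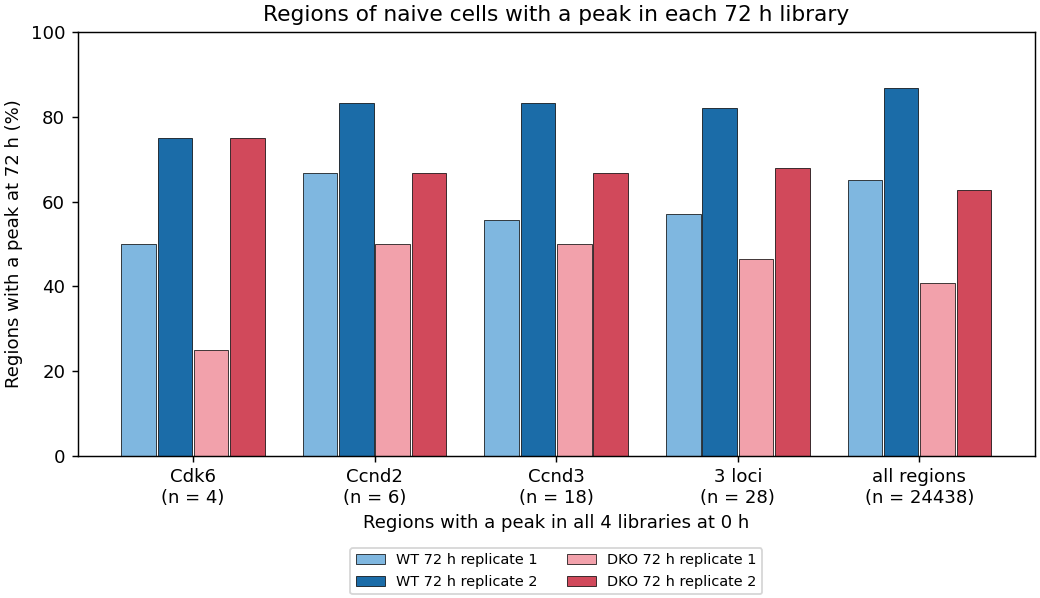
Percent of the regions found in all 4 naive libraries that had a peak in each of the 4 libraries at 72 h (bars, 1 colour per library), for each window, for the 3 windows together and for all regions, with the number of regions under each group. For the 28 members the bars stand at 57.1%, 82.1%, 46.4% and 67.9%.

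Of the 28 members listed in each of the 4 naive libraries, 16 (57.1%) had a peak in WT replicate 1 at 72 h, against 65.2% of all such regions, and 23 (82.1%) had one in WT replicate 2, against 86.9%. In DKO at 72 h, 13 (46.4%) had a peak in replicate 1, against 40.9%, and 19 (67.9%) had one in replicate 2, against 62.7%. The order of the 4 libraries was the same in the members as in all regions except that DKO replicate 2 held more of the members than WT replicate 1, where over all regions it held fewer. By window, WT replicate 2 held 3 of 4 such regions at Cdk6, 5 of 6 at Ccnd2 and 15 of 18 at Ccnd3, and DKO replicate 1, the shortest list, held 1, 3 and 9.

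**Figure D4:**
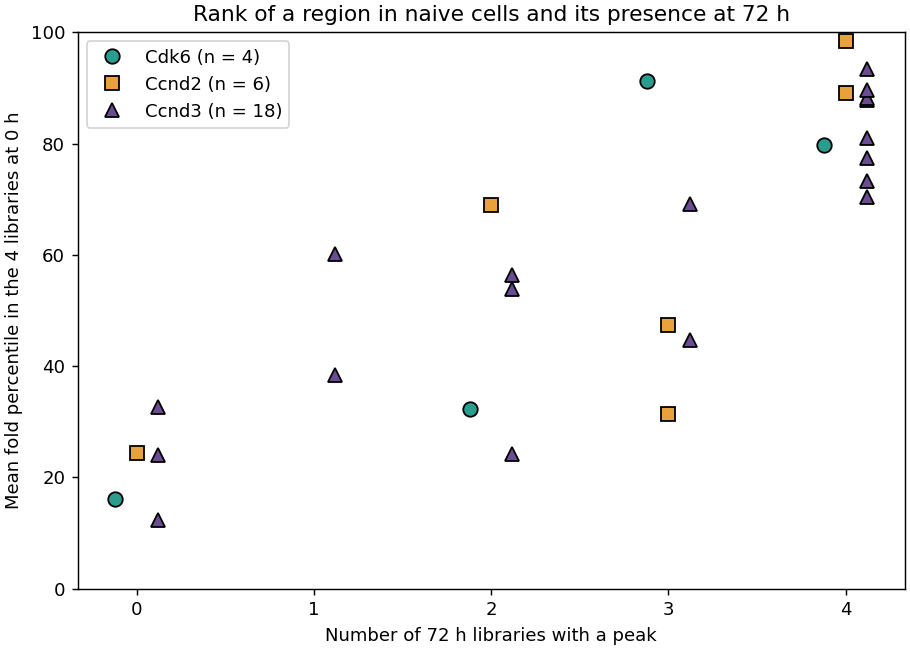
Mean fold percentile in the 4 naive libraries (vertical axis) against the number of 72 h libraries with a peak (horizontal axis) for the 28 members found in all 4 naive libraries, with circles for Cdk6, squares for Ccnd2 and triangles for Ccnd3, set side by side for legibility. The members with a peak in all 4 libraries at 72 h sit at 70.5 or above, and the circle near 91 in the column of 3 libraries is Cdk6 region 5.

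How a naive region ranked went with whether it was listed at 72 h. The 5 members with no peak at 72 h had mean naive percentiles from 12.4 to 32.6 (median 24.1), the 12 with a peak in 1 to 3 of the 4 libraries from 24.1 to 91.3 (median 50.6), and the 11 with a peak in all 4 from 70.5 to 98.5 (median 87.8). Over all regions the medians of these classes were 26.4, 48.5 and 83.1. The members therefore followed the order of the whole series, with Cdk6 region 5 at the upper end of the middle class.

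Summit position and peak width were not themselves criteria for the members. The start and end of each peak did decide whether it fell in a window and which peaks were joined. The summit spread is therefore limited by the joining of peaks. Of the members, 10 had exactly 1 peak in each of the 8 libraries, and their summits spread over 44 to 291 bp (median 142 bp), against a median of 127 bp over the 8908 such regions of the series. Their peaks were narrower at 72 h in 10 of 10 cases, with a median width of 869 bp at 0 h and 599 bp at 72 h, and the same held for 99.6% of all such regions (878 and 600 bp).

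At the window edges, the nearest regions outside were bound as well. The region just before the Ccnd3 window, chr17:47496664-47497579, lay 2421 bp from its edge and had folds from 8.09 to 18.9 in 7 libraries, while the first region inside, region 1 (chr17:47505417-47506155), had folds from 6.17 to 10.1 in 5 libraries. After that window, chr17:47813337-47814192 lay 13336 bp away, with folds from 4.64 to 16.6 in all 8 libraries, and the last region inside, region 24 (chr17:47783300-47784198), had folds from 4.31 to 7.90 in 6. The last region before the Ccnd2 window (chr6:126905105-126906527, folds 7.91 to 26.3 in 8 libraries) lay 43473 bp from it and the first after it (chr6:127215584-127217433, 6.46 to 18.9 in 7) 15583 bp from it. For Cdk6 these were chr5:3152090-3152600 (6.13 to 6.19 in 2 libraries), 97400 bp before, and chr5:3669731-3670376 (5.20 to 11.8 in 5), 19730 bp after.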

How the data were processed

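The data were 8 CTCF CUT&RUN peak lists and 1 IgG list, 1 per library, so peaks were called per sample and not on pooled samples. Per the submitters' processing notes, the tools were Bowtie2 2.2.5, MACS2 2.1.1 and FastQC, and the build was mm9. The control and the cutoffs are not given in the sources used here. In each list, the deposited fold column is the authors' ratio of a peak to the background around it, the deposited −log10 q and −log10 p values come from their peak caller, and the deposited score column entered no comparison. The summit column gives the authors' distance in bp from the peak start. These values describe and rank peaks within their own list.

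Groups and replicate numbers came from the sample titles. Peaks on chromosomes 1 to 19 and X were kept, which left out 5, and merged at an overlap of 1 bp over the whole series with Python 3.11.15 and pandas 2.3.3. Where a library had more than 1 peak in a region, the highest fold was taken. A region was called specific to a group if the 2 libraries of that group listed a peak and the 2 compared with them listed none. No test was made: 2 libraries against 2 cannot go below an exact two-sided p of 0.333, and presence was used to choose the members. Merging and calling were tested on simulated lists with widely spaced sites and lists of nearly the same length. That check therefore does not cover close neighbours or lists that differ in length as these do.

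Values in every library are given for the 3 regions of highest mean percentile per window among those found in all 8 libraries and for group-specific regions, at most 6 per window, and others were added after their values were seen. The members, windows and lists were chosen with earlier results of these data known. Alternatives tried were lists of equal length, a −log10 q of 5 or more, a shared length of 50% or more of the shorter peak, summits within 100 bp, a peak in at least 1 library of a group, and each library left out in turn.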

Additional observations from a re-analysis of the deposited data

How the results depend on the processing

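Counts over the 44 members are small and move with the processing, and the cause was not tested. With a −log10 q of at least 5, 5 regions were found in all 8 libraries in place of 11, 4 were 0 h-only in WT in place of 7, and 1 was 72 h-only in WT in place of 2. With lists of equal length, fewer peaks enter, and 20 regions were left in place of 44. At that length 0 were WT-only at 0 h, 2 WT-only at 72 h, 0 were 0 h-only in WT and 1 was 0 h-only in DKO. With summits within 100 bp, 59 regions were found in place of 44, and 9 were found in all 8 libraries in place of 11. At that setting 2 were WT-only and 1 DKO-only at 0 h, 1 was 72 h-only in WT, and 6 were 0 h-only in DKO in place of 9. With a peak required in at least 1 library of the group, 4 were WT-only and 4 DKO-only at 0 h, 7 WT-only at 72 h, 5 were 72 h-only in WT, 14 were 0 h-only in DKO and 2 were 72 h-only in DKO. Counts not given for these settings stayed within 1.5 times. Overlap of 50% of the shorter peak left each of these counts unchanged. With each library left out in turn, the regions numbered 41 to 44 and those found in every remaining library 11 to 15. WT-only calls ran from 1 to 3 at 0 h and from 1 to 7 at 72 h, DKO-only calls from 0 to 4 and from 0 to 1. Calls of 0 h-only ran from 7 to 14 in WT and from 9 to 16 in DKO, and of 72 h-only from 2 to 5 and from 1 to 2. Of the 17 regions named by rule, the number of libraries with a peak was the same for 17 with 50% overlap, 13 with summits within 100 bp, 10 with a −log10 q of at least 5 and 7 with lists of equal length. No paired analysis was possible because the results come from no test. Read depth is unknown, and a missing peak does not show that CTCF was absent.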
